A study of Mus musculus with 3 samples.

Results

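The peroxiredoxin, thioredoxin and glutathione redox genes examined here are 10 genes: Txn1, Txnrd1, Prdx1, Prdx2, Prdx5, Prdx6, Gpx1, Gpx4, Sod1 and Glrx. They were taken by gene name from the 55536 genes of the deposited gene tables and from the 141862 transcript rows of the same annotation, GENCODE M21, where the 10 genes have 54 rows. The data are polyadenylated RNA sequencing of regulatory T cells (Tregs), CD4+ T cells that restrain immune responses. The cells were primary cells from 1 adult male mouse, 6 months old, of the strain Foxp3CreERT2 x Rosa26YFP, and the labels call them inflammation-experienced. In that strain the Foxp3 locus drives a tamoxifen-inducible Cre recombinase, which marks cells that express Foxp3 with a yellow fluorescent protein from Rosa26. The labels give no agent, dose or timing for the inflammation or for the induction of Cre, nor a tissue. There is 1 group with 1 biological replicate and 3 technical replicates, called library 1, 2 and 3 here. No untreated or resting group was analysed here, so the data hold levels and their spread between libraries, and no effect of inflammation.

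Cells turn superoxide into hydrogen peroxide with superoxide dismutases and then remove the peroxide with peroxiredoxins, glutathione peroxidases and catalase. Peroxiredoxins are oxidised on a cysteine and are mostly reset by thioredoxin, which thioredoxin reductase recharges from NADPH. Glutathione peroxidases take their electrons from glutathione, and glutaredoxins remove glutathione from protein cysteines. In T cells hydrogen peroxide is also a signal that follows engagement of the antigen receptor, and activated T cells are known to need both the thioredoxin and the glutathione arm to grow and to survive lipid peroxidation.

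The reaction of nearly all of these proteins turns on 1 codon, and the sequence around it is shown for each gene because a later section asks how much of each gene's RNA was assigned to transcripts that hold that codon. In the sequences below, read from the GENCODE M21 transcripts on the mm10 assembly and written 5′ to 3′ in coding direction, capitals mark the codon of the active-site cysteine in Txn1 and Glrx, of the peroxidatic cysteine in the peroxiredoxins, of the selenocysteine in Gpx1, Gpx4 and Txnrd1, and of a copper-binding histidine in Sod1.
Sod1: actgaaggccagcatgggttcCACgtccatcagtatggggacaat
Prdx1: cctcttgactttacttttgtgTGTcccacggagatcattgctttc
Prdx2: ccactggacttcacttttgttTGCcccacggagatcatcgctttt
Prdx6: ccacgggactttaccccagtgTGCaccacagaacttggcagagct
Prdx5: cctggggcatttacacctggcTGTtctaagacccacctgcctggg
Gpx1: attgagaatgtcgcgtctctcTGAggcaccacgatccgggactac
Gpx4: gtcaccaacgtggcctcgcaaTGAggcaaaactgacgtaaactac
Txnrd1: gacatcctccagtctggctgcTGAggt
Txn1: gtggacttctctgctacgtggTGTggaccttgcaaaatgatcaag
Glrx: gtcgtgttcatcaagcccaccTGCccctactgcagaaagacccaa
The 3 selenoprotein genes share a TGA, which elsewhere stops translation and here is read as selenocysteine with the help of a structure in the RNA's tail. It is codon 47 of 201 in Gpx1 and codon 73 of 197 in the Gpx4 transcript Gpx4-202. In Txnrd1 it is codon 498 of 499, so the printed stretch ends with the coding sequence. The cysteine codon is number 52 of 199 in Prdx1, 51 of 198 in Prdx2, 47 of 224 in Prdx6 and 96 of 210 in the longer Prdx5 transcript. In Txn1 and Glrx the other active-site cysteine is the tgc that follows the capitals after 2 codons. The Prdx5 stretch runs across an exon boundary.

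The RNA carried the markers of Tregs. All 15 Treg markers were at 1 TPM or more in every library, with Foxp3 at 18, 14.2 and 16 TPM and Ikzf2, which encodes the transcription factor Helios, at 451, 371 and 478 TPM. TPM is the deposited level per unit of transcript length, scaled to the same total in each library, and can be compared between genes. The gene tables summed to 11829501, 14136139 and 10667765 estimated counts in libraries 1, 2 and 3. The libraries were not alike in content. A chi-square test of homogeneity between libraries called all 22 proliferation genes, and all were lowest in library 3; of all tested genes 45.7% were called and 19.5% were called and lowest in library 3. None of the 22 was called once the variance common to all genes was added, with adjusted p of 0.385 (Mcm5) or more by that chi-square test. That variance was estimated from these same libraries, so it includes the differences between them. In library 3 the summed level of the 22 proliferation genes was 5891 TPM, against 7935 and 7369 in libraries 1 and 2. Of 12 erythroid genes 4 were at 1 TPM or more in every library, and their sum was 18.7, 64.4 and 301 TPM. Hba-a2, Slc4a1 and Klf1 were listed at 0 in library 1, and Klf1 also in library 2. Of 12 B cell markers 7 reached that level, and the sum was 470, 729 and 917 TPM. Of 12 macrophage and monocyte markers 2 did, with sums of 11, 62 and 26.3 TPM, and the 9 neutrophil markers had sums of 0.61, 14 and 3.78 TPM with none at that level in every library. In bulk RNA fewer cells of a type and less RNA per cell cannot be told apart.

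All 10 redox genes were detected, meaning 1 TPM or more in every library. Of their 30 deposited TPM values 28 lie above the interval that the same table gives for the gene, which goes with the lower posterior mean TPM, at a median of 85.6%, 87.7% and 84.4% of TPM over the 10 genes in libraries 1, 2 and 3. Over all genes at 1 TPM or more in a library that median was 90.3%, 91.8% and 89.6%, so the lower posterior mean is not particular to the 10 genes. The share of all genes above their interval was not counted. Most levels printed here are thus above the interval that goes with them. Together the 10 redox genes made up 4170, 3951 and 4120 TPM (4081 ± 115, SD, n = 3 libraries). Sod1 and Prdx1 alone took 50.1%, 50.4% and 50.1% of that sum. The mean level of the most abundant of them, Sod1, was 44.2 times that of the least abundant, Txnrd1.

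**Figure D1:**
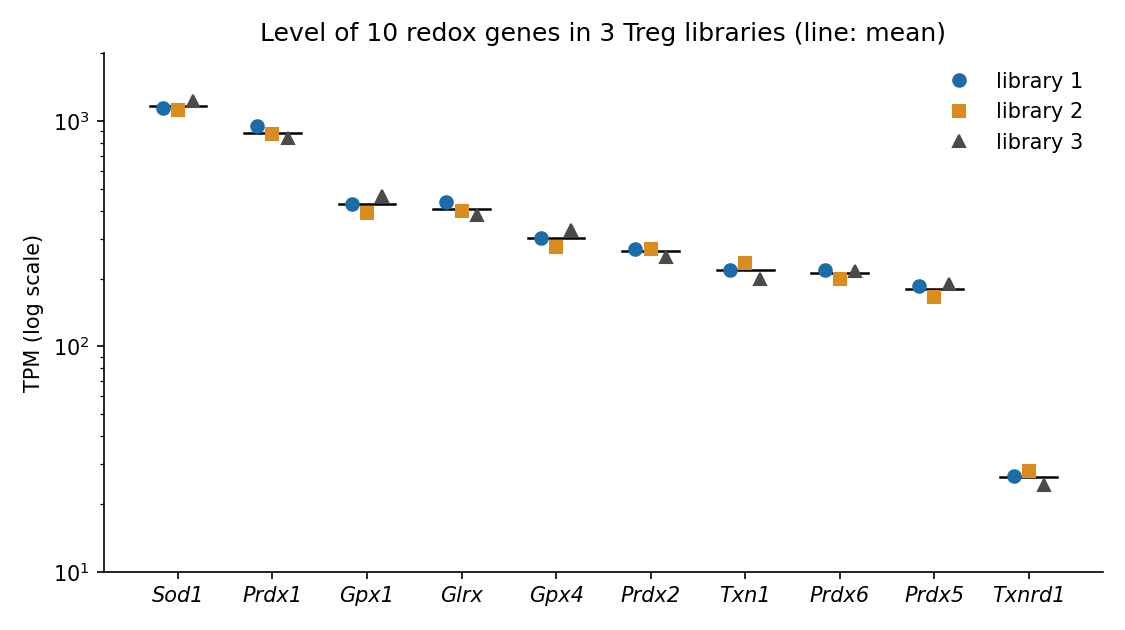
TPM of the 10 redox genes on a log axis, with a symbol for each of the 3 libraries and a line at their mean, in order of the mean. Sod1 and Prdx1 lie above the other 8 genes, Txnrd1 lies below them at 24.3 to 28 TPM, and the libraries of each gene lie close together.

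Sod1, the copper and zinc superoxide dismutase of the cytosol that makes hydrogen peroxide from superoxide, was the most abundant. Its level was 1144, 1119 and 1222 TPM in libraries 1, 2 and 3 (1162 ± 53.7, n = 3), rank 120 among all genes. Library 3 was the highest. The mitochondrial enzyme Sod2 was at 44.4, 46.2 and 50.8 TPM, so that Sod1 exceeded it 24.6-fold (4.62 ± 0.05 on the log2(TPM + 0.1) scale, n = 3). The difference had the same sign in 3 of 3 libraries. With 3 libraries the exact sign-flip test cannot give a p below 0.25, and 0.25 was its value, two-sided and adjusted over 13 pairs, for this and each of the other 12 pairs of genes given here.

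Prdx1, a cytosolic peroxiredoxin that thioredoxin reduces, followed at 945, 873 and 842 TPM (887 ± 52.7, n = 3), rank 169. Its ranges did not overlap those of Sod1 above it or Gpx1 below it. Prdx2, its close relative in the cytosol and known for its abundance in red blood cells, was at 271, 271 and 250 TPM (264 ± 12.1, n = 3). Prdx1 exceeded Prdx2 3.36-fold (log2 difference 1.75 ± 0.06), in 3 of 3 libraries.

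Prdx6 works with a single catalytic cysteine, takes electrons from glutathione and can also act on oxidised phospholipids. It was at 218, 198 and 216 TPM (211 ± 11, n = 3), and Prdx1 exceeded it 4.2-fold (2.07 ± 0.10). Library 2 held the lowest value. Prdx5, an atypical peroxiredoxin found in mitochondria, peroxisomes and the cytosol, was at 186, 166 and 189 TPM (180 ± 12.4, n = 3). It lay 1.88-fold above Prdx3, the peroxiredoxin of the mitochondrial matrix (log2 difference 0.91 ± 0.10), which had 96.3, 95.9 and 95.6 TPM. Prdx5 was the lowest of the 4 peroxiredoxin genes in the group in each library, with library 2 the lowest for Prdx5 as for Prdx6.

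Gpx1, the general glutathione peroxidase that reduces hydrogen peroxide, had 426, 389 and 466 TPM (427 ± 38.7, n = 3). Gpx4, the enzyme that reduces lipid hydroperoxides inside membranes and is known to hold back ferroptosis, an iron-dependent cell death, had 301, 275 and 328 TPM (301 ± 26.4, n = 3). Both were highest in library 3 and lowest in library 2. The log2 difference of Gpx4 from Gpx1 was -0.50, -0.50 and -0.51, and its SD rounded to 0.00, the smallest of the 13 pairs. Prdx1 lay 2.08-fold above Gpx1 (1.06 ± 0.18), and Gpx1 lay 6.33-fold above catalase, Cat, a peroxide-removing enzyme of peroxisomes, which had 67.4, 72.3 and 62.3 TPM (log2 difference 2.66 ± 0.24).

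Txn1, the cytosolic thioredoxin, had 219, 234 and 199 TPM (218 ± 17.7, n = 3). Txnrd1, the reductase that recharges it, had 26.5, 28 and 24.3 TPM (26.3 ± 1.89, n = 3), rank 4615 among all genes. Both were highest in library 2 and lowest in library 3. Txn1 exceeded Txnrd1 8.25-fold, with log2 differences of 3.04, 3.06 and 3.03 (3.04 ± 0.01). Txnrd1 lay 2.07-fold above Txnrd2, the mitochondrial reductase (1.05 ± 0.12), and 2.45-fold above Gsr, glutathione reductase, which does the same work for glutathione (1.29 ± 0.19). Txn1 lay 1.52-fold above the mitochondrial Txn2 (0.60 ± 0.13) and 1.63-fold above Txnip, which encodes an inhibitor that binds thioredoxin (0.71 ± 0.19). Each of these differences had 1 sign in 3 of 3 libraries.

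Glrx, the cytosolic glutaredoxin that uses glutathione to free protein thiols, had 435, 397 and 383 TPM (405 ± 26.6, n = 3). Library 1 was the highest and library 3 the lowest. Txn1 was at 0.537 of its level (log2 difference -0.90 ± 0.12), lower in 3 of 3 libraries.

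In order of mean level the genes were Sod1, Prdx1, Gpx1, Glrx, Gpx4, Prdx2, Txn1, Prdx6, Prdx5 and Txnrd1. The ranges over libraries overlapped for 2 pairs of neighbours. Gpx1 and Glrx differed by 0.07 ± 0.18 on the log2 scale, with Gpx1 higher in 1 of 3 libraries, and Txn1 and Prdx6 by 0.04 ± 0.18, with Txn1 higher in 2 of 3. Their order is therefore not fixed by these libraries. The widest step between neighbours was from Prdx5 down to Txnrd1, a log2 difference of 2.77 ± 0.20.

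The spread between libraries was then tested. A Poisson chi-square test of homogeneity asks whether the estimated counts of a gene divide over the 3 libraries as their TMM-adjusted sizes do, with p-values adjusted by the Benjamini-Hochberg method over the 13970 genes whose counts averaged at least 10. It called 8 of the 10 genes at an adjusted p of 0.05, where 45.7% of all tested genes were called. Deep counts make small differences visible, and 71.6% of the 2585 genes averaging at least 1000 counts were called. The differences were small in size. The highest library exceeded the lowest by 1.04-fold for Prdx6 to 1.23-fold for Txn1 in CPM, counts scaled to TMM-adjusted library size, and none of the 10 genes passed 1.5-fold, which 16.9% of tested genes did while being called. The median coefficient of variation was 6.48% over the 10 genes, 12.18% over all tested genes and 6.7% over those averaging at least 1000 counts. The test describes these libraries of 1 sample and not the spread between animals.

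Of the 8 called genes, 5 were lowest in library 3, as were 2718 of the 6388 genes called among all tested. Over all tested genes, called or not, that is 19.5%. Prdx1 had 686, 664 and 600 CPM (adjusted p = 1.75e-14, chi-square test). Glrx followed the same order at 440, 412 and 380 CPM (adjusted p = 1.37e-10, chi-square test). Both were highest in library 1. Txn1 had 169, 186 and 151 CPM (adjusted p = 2.48e-09, chi-square test). Prdx2 had 158, 163 and 143 CPM (adjusted p = 0.00141, chi-square test) and Txnrd1 67.2, 70.6 and 60.5 CPM (adjusted p = 0.0218, chi-square test). These 3 genes were highest in library 2. The proliferation genes were lowest in library 3 as well, at the summed levels given above, and their part in this pattern was not tested.

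The other 3 called genes were highest in library 3, as were 2264 of the 6388 genes called among all tested. Over all tested genes, called or not, 16.2% were called and highest in library 3. Gpx1 had 263, 247 and 281 CPM (adjusted p = 1.37e-05, chi-square test). Gpx4 had 171, 162 and 182 CPM (adjusted p = 0.00332, chi-square test), and Sod1 531, 533 and 559 CPM (adjusted p = 0.016, chi-square test). Erythroid and B cell transcripts were also highest in library 3, and their part in this pattern was not tested. Prdx5, at 98.3, 95.4 and 102 CPM (adjusted p = 0.301), and Prdx6, at 178, 171 and 178 CPM (adjusted p = 0.355), did not pass the chi-square test. The call of Gpx4 was lost when the deposited posterior SD of its counts was added to the counting noise (adjusted p = 0.0628, chi-square test). Adding the variance common to all tested genes, a coefficient of variation of 16.9%, left 0 of the 10 genes called, where 3.29% of all tested genes were called, and the smallest adjusted p among them was then 1. Each of the 10 had a smaller coefficient of variation, from 2.42% (Prdx6) to 10.4% (Txn1), so none could be called with it.

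Leaving out library 3 lowered the share called over all tested genes from 45.7% to 21.3%. The redox genes followed, with 2 called without it, Txn1 and Glrx. Without library 1 there were 8, against 33.8% of all genes, and without library 2 there were 6, against 30.7%. Scaling by total counts in place of TMM also called 8, where 46.1% of all tested genes were called, but dropped Prdx2 (adjusted p = 0.109) and Txnrd1 (adjusted p = 0.202) and added Prdx5 (adjusted p = 0.022) and Prdx6 (adjusted p = 0.0173, all from the chi-square test).

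The second deposited count table, whole-number counts per gene on the older annotation GENCODE M4, gave another picture of the same libraries. It called 4 of the 10 genes, where 21.5% of its 10013 tested genes were called: Sod1, Gpx1, Prdx1 and Txnrd1. Prdx1 had 197, 168 and 206 CPM there (adjusted p = 0.0115, chi-square test), so library 3, its lowest in the estimated counts, was its highest. Txn1 moved the same way, at 180, 167 and 187 CPM, and did not pass the chi-square test (adjusted p = 0.349). For Gpx1, Gpx4, Prdx5, Sod1 and Txnrd1 library 3 stood at the same end in both tables. Sod1 had 240, 215 and 264 CPM (adjusted p = 0.00458, chi-square test), and Gpx1 had 321, 300 and 353 CPM (adjusted p = 0.00971, chi-square test). Txnrd1 had 99.5, 97.7 and 75.8 CPM (adjusted p = 0.0248, chi-square test). These 3 genes kept their call and the side of library 3 in both tables.

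**Figure D2:**
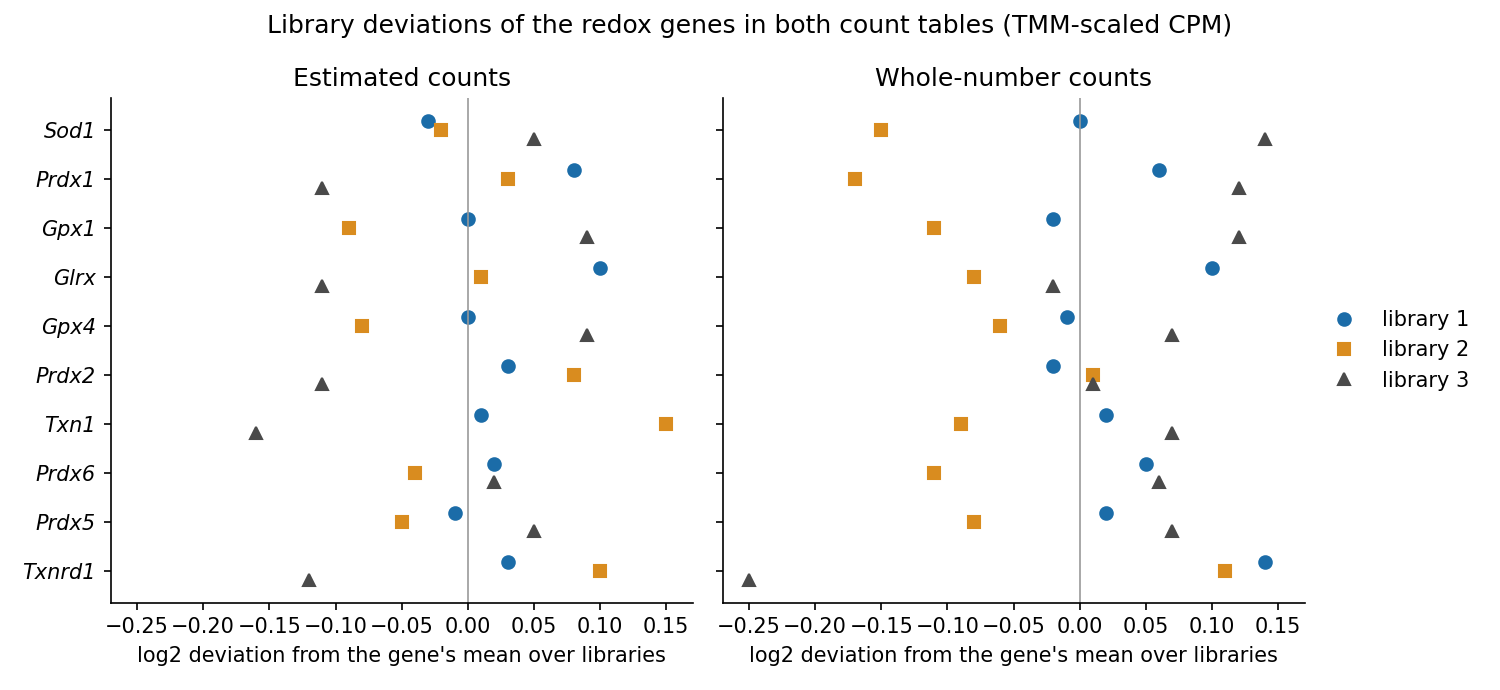
Log2 deviation of each library from the gene's mean, in TMM-scaled CPM, for the estimated counts (left) and the whole-number counts (right), with a symbol for each library. On the left library 3 is lowest for Prdx1, Glrx, Prdx2, Txn1 and Txnrd1, and on the right only for Txnrd1, at -0.25.

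The tables also differed in how many reads they gave each gene. Over the 11369 tested genes in both, the whole-number count was a median of 40.7% of the estimated count, and 33.1% over those averaging at least 1000 estimated counts. For Prdx1 it was 7.22%, with 582, 571 and 567 whole-number counts against 8075, 9167 and 6597 estimated ones. Gpx4 was at 8.96%, Glrx at 9.88% and Sod1 at 11%. The other 6 genes lay between 26% for Txn1 and 50% for Prdx5. In the whole-number counts, which are not per length, Prdx1 was below Gpx1 and Prdx6 in every library, and in the estimated counts, also not per length, it was above both.

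Some of the genes have sequence in common with other genes. Of all 50-base stretches in a gene's transcripts, 50 being the length implied by the deposited effective lengths, 34.7% occurred unchanged in another gene's transcripts for Gpx4. All 627 of these stretches were found in Gpx4-ps2, a transcribed processed pseudogene on the same chromosome that was given 320, 352 and 302 counts. The posterior SD of the Gpx4 count was 2.04% of the count, the highest of the 10 genes. The share was 15.5% for Prdx5, where all 360 stretches were shared with Trmt112, which it overlaps on the other strand. For Prdx2 the share was 12%. Its stretches were shared with Junb (127) and Rnaseh2a (105), which it overlaps on the other strand, and with the pseudogene Tdpx-ps1 (140). The share was 8.81% for Prdx1, where the processed pseudogenes Gm21399 and Gm7204 held 168 and 142 of the 272 shared stretches. For Sod1 it was 3.42%, with the pseudogene Gm8566. For Glrx it was 0.0542%, and Gpx1 and Txnrd1 had none. The part of such copies in the difference between the count tables was not tested. The sources used here do not give the strand setting of the counting, so reads from the overlapping bases, 181 and 351 in Prdx2 and 409 in Prdx5, may belong to either gene. The span of Sod1 overlaps that of Scaf4 on the other strand by 650 bases.

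The transcript tables divide each gene's TPM over its annotated transcripts. In 7 of the 10 genes at least 96.1% went to transcripts that hold the printed codon inside their annotated coding sequence. Prdx6, Gpx1 and Prdx2 were the exceptions, at 10.2% ± 1.62, 42.3% ± 1.63 and 46.5% ± 1.21 (SD, n = 3). This is an assignment by a model from short reads, and full-length molecules were not seen.

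**Figure D3:**
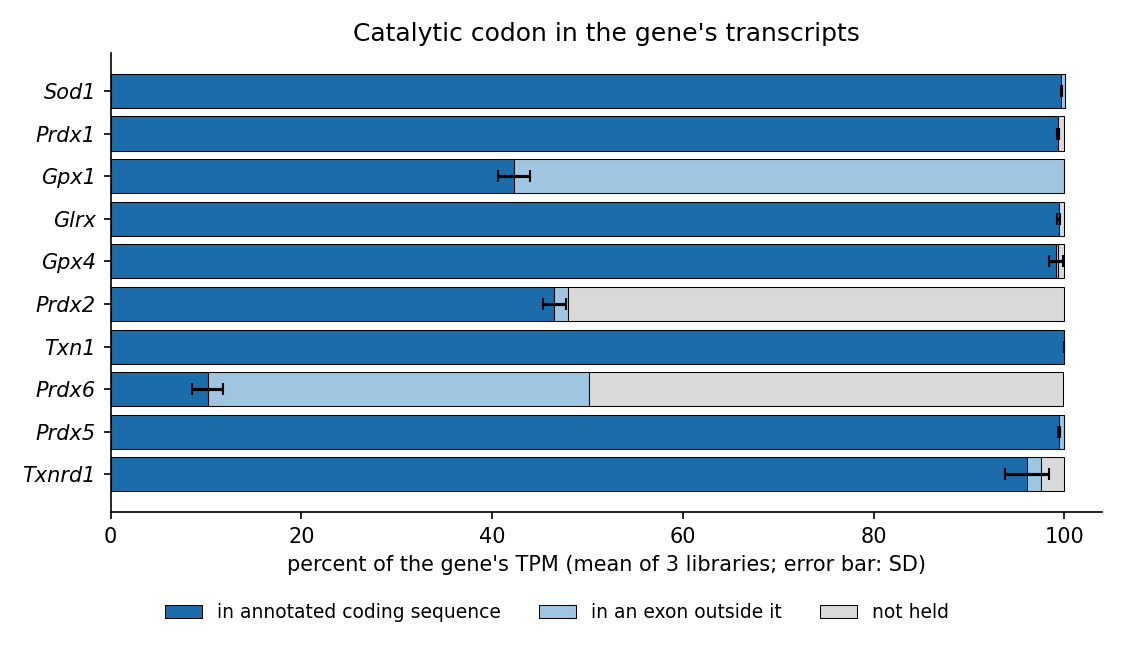
Percent of each gene's TPM on transcripts that hold the catalytic codon in the annotated coding sequence, in an exon outside it, or not at all (stacked bars, mean of 3 libraries; the error bar is the SD of the first class). Prdx6 (10.2%), Gpx1 (42.3%) and Prdx2 (46.5%) stand apart from the other 7 genes.

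Prdx6 has 9 annotated transcripts. The one with the highest share was Prdx6-208, of the class annotated as a target of nonsense-mediated decay, with 48.2%, 48.9% and 47.5% of the gene's TPM. Its exons leave out the peroxidatic codon at chr1:161247368-161247370 on the minus strand. Prdx6-204 and Prdx6-207, annotated as processed transcripts with no coding sequence, hold the codon in an exon and took 21.1% ± 5.06 and 18.5% ± 3.97. The protein-coding Prdx6-201 and Prdx6-202 took 5.54% ± 1.6 and 4.68% ± 0.368. The level on transcripts that code for the catalytic cysteine was thus 20.1, 24 and 20.2 TPM, against 218, 198 and 216 TPM for the gene. The posterior SD of the gene's count was 0.00422% of it, but that of its split was larger. It was 30.4, 38.5 and 30.1 on 76, 144 and 83 counts for Prdx6-201, and 19.6, 19.6 and 16.6 on 231, 242 and 179 counts for Prdx6-202. The level on coding transcripts is therefore less certain than that of the gene. For Prdx6-208 it was 30.5, 31.9 and 30.3 on 1185, 1317 and 1061 counts.

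Prdx2 has 8 annotated transcripts. Prdx2-205, a retained-intron transcript of 549 bases, took 52.4%, 51.4% and 52.2% of the TPM. It does not reach the peroxidatic codon at chr8:84970483-84970485 on the plus strand. The protein-coding Prdx2-204 and Prdx2-201 took 28.4% ± 1.02 and 15.9% ± 0.787. Because Prdx2-205 is short, its share of TPM exceeds its share of reads: transcripts with the codon in their coding sequence held 64% of the gene's estimated counts against 46.5% of its TPM. Reads from the bases that Prdx2 shares with Junb and Rnaseh2a may belong to those genes. Prdx2 spans chr8:84969587-84974834 and Prdx2-205 spans chr8:84971456-84974311. If the 351 and 181 shared bases lie at the ends of the gene's span, they are outside Prdx2-205. The part of such reads in the shares of the other transcripts was not tested. The deposited posterior SDs of Prdx2-205 were 27.5, 26 and 24.2 on 642, 760 and 541 counts.

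Gpx1 differed in kind. All 4 of its transcripts carry the selenocysteine TGA at chr9:108339451-108339453 on the plus strand in an exon, and 99.8% of its TPM went to transcripts annotated as protein-coding. However, the annotated coding sequence of Gpx1-204 and of Gpx1-202 does not include that TGA. Gpx1-204 took 39.5%, 45.4% and 43.9% of the TPM and Gpx1-202 19%, 10.2% and 14.6%. Gpx1-201, the transcript with the TGA in its coding sequence, took 41.4%, 44.2% and 41.3%, equal to 176, 172 and 193 TPM. The deposited posterior SDs were 79.1, 74.7 and 79.6 on 1632, 1921 and 1637 counts for Gpx1-201, and 99.1, 95.7 and 98.9 on 541, 319 and 416 counts for Gpx1-202. The share of Gpx1-202 was thus the less certain.

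Among all 10131 detected protein-coding genes a median of 86.5% of TPM was on protein-coding transcripts, and 16.1% of these genes had under 50%. Prdx6 and Prdx2 belong to the latter. The codon itself was traced in the 10 genes only.

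**Figure D4:**
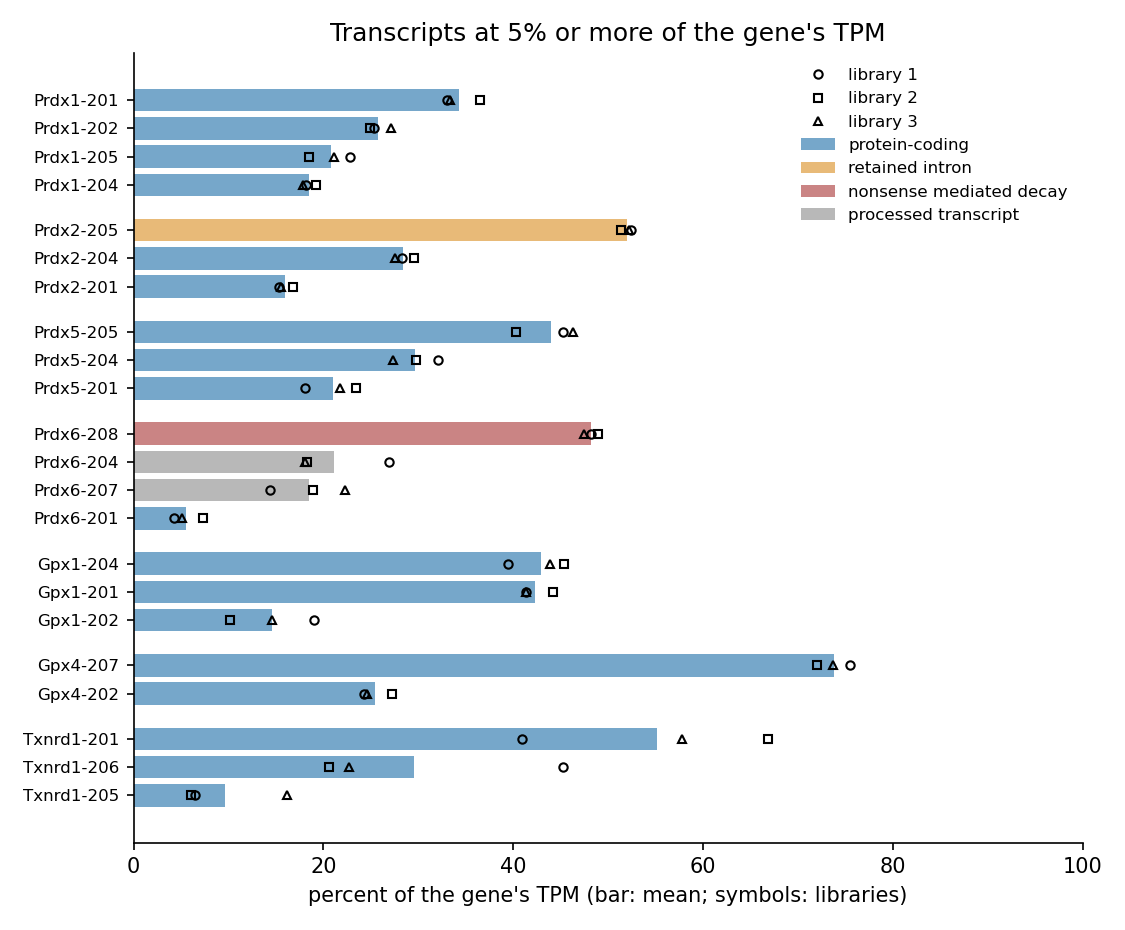
Percent of the gene's TPM for each transcript with a mean of 5% or more in the 7 genes with several transcripts, coloured by annotated class; bars are means and symbols the 3 libraries. The top transcript of Prdx2 (52%) is a retained intron and that of Prdx6 (48.2%) a nonsense-mediated decay target, and the symbols lie farthest apart for Txnrd1-201.

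The other genes were assigned mostly to coding transcripts. Txn1 has a single one, Txn1-201, with the active-site codon at chr4:57951830-57951832 on the minus strand. Sod1-201 took 99.7% ± 0.0513 of Sod1, with its histidine codon at chr16:90222846-90222848 on the plus strand, and Glrx-201 took 97.7% ± 0.0611 of Glrx, with the cysteine codon at chr13:75840035-75840037 on the plus strand. These 3 genes are close to 1 transcript each.

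Prdx1 was divided over 4 coding transcripts. Prdx1-201 took 34.3% ± 1.96, Prdx1-202 25.8% ± 1.16, Prdx1-205 20.8% ± 2.16 and Prdx1-204 18.5% ± 0.701. All 4 have the peroxidatic codon at chr4:116691823-116691825 on the plus strand in their coding sequence. Prdx5 was divided over Prdx5-205 (44% ± 3.24), Prdx5-204 (29.7% ± 2.43) and Prdx5-201 (21% ± 2.7), all with the codon at chr19:6907988-6907990 on the minus strand.

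Gpx4-207 took 73.8% ± 1.72 and Gpx4-202 25.4% ± 1.59 of Gpx4, and both hold the selenocysteine codon at chr10:80054737-80054739 on the plus strand. Another coding transcript, Gpx4-201, was listed at 0 in all 3 libraries.

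Txnrd1 was the least settled. Txnrd1-201 took 40.9%, 66.8% and 57.8% and Txnrd1-206 took 45.2%, 20.6% and 22.7%. Library 1 thus gave the larger share to Txnrd1-206, and libraries 2 and 3 to Txnrd1-201. The counts behind these values were 322, 671 and 382 for Txnrd1-201, with deposited posterior SDs of 85.8, 77.8 and 58.6 counts. Txnrd1-205 took 9.59% ± 5.73. These 3 transcripts have the selenocysteine codon at chr10:82896037-82896039 on the plus strand in their coding sequence, and together with Txnrd1-208 they made up 96.1% ± 2.32 of the gene's TPM, or 90.3% by posterior mean TPM.

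The genes around these 10 were taken from 9 lists with 138 genes. Of these, 106 were detected, 113 were tested between libraries and 49 were called, which is 43.4% of those tested beside 45.7% of all genes. With the common variance added, 0 of them were called. The median level of the 10 redox genes was 283 TPM, above the list medians, which ran from 2.17 to 69.4 TPM. The 10 genes and the lists were chosen with earlier results of these data known, and the lists include undetected genes. The difference in medians therefore cannot be told apart from that choice.

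**Figure D5:**
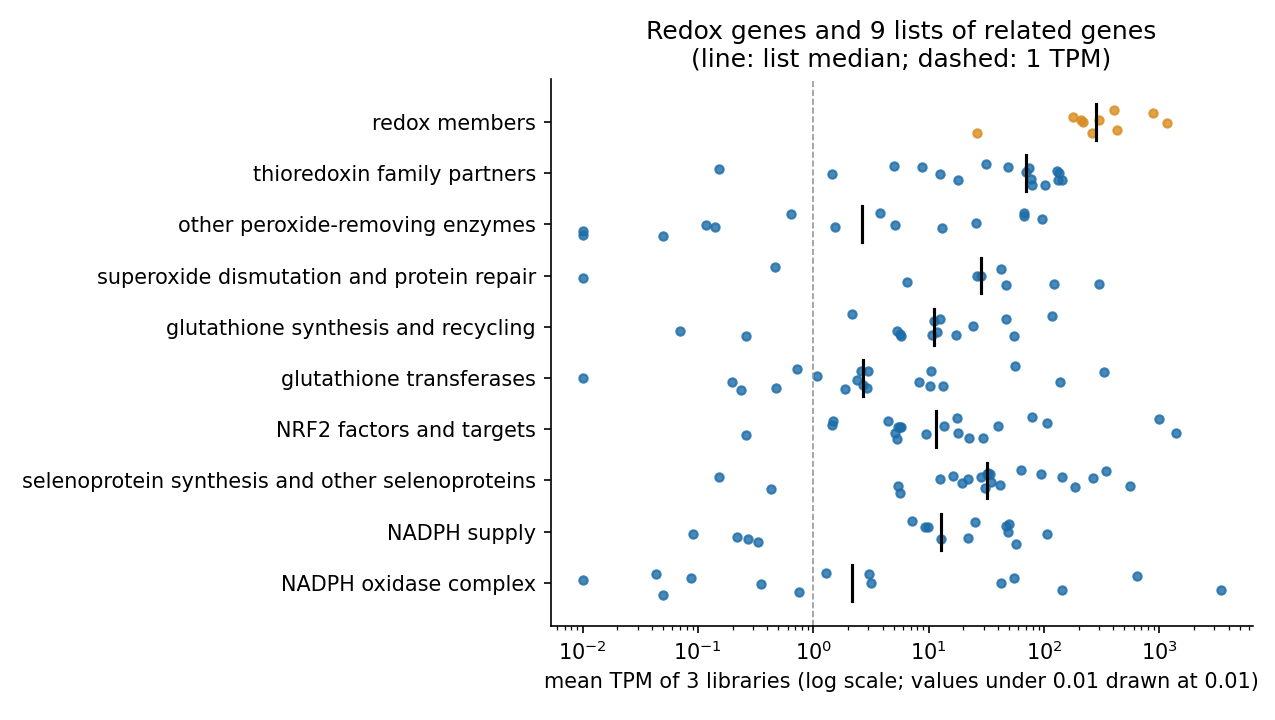
Mean TPM over 3 libraries of each of the 10 redox genes (orange) and of the genes in 9 related lists (blue) on a log axis, with a line at each list's median and a dashed line at 1 TPM. The 10 redox genes have a median of 283 TPM, and each other list reaches below 10 TPM.

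In the thioredoxin family 16 of 17 partner genes were detected and 6 of 16 were called. After Txn2 (143 ± 1.66 TPM) the highest were Txndc17 at 136 ± 5.67, Txnip at 133 ± 6.42 and Txndc9 at 129 ± 7.73 TPM, while Txnrd3, the testis-rich reductase, was at 0.153 TPM. All of these partners were thus below Txn1. Of 14 other peroxide-removing genes 7 were detected, with Prdx3 at 95.9 ± 0.362, Prdx4, the peroxiredoxin of the endoplasmic reticulum, at 67.5 ± 8.64 and Cat at 67.3 ± 5.01 TPM. Gpx6 and Gpx8 were listed at 0 in all 3 libraries, and Prdx6b, a near copy of Prdx6, was at 0.05 TPM. Prdx4 (adjusted p = 0.000706) and Cat (adjusted p = 4.55e-08) were among the 4 of 8 tested that the chi-square test called.

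Beside Sod1, of the 9 genes for superoxide removal and protein repair 7 were detected and 1 of 8 tested was called. Park7, a redox-sensitive protein known from Parkinson's disease, had 303 ± 2.06 TPM, and Pcmt1, which repairs aged aspartate residues, 122 ± 4.84 TPM, and was the gene called (adjusted p = 0.0375, chi-square test). Ccs, the chaperone that loads copper into Sod1, had 42.3 ± 4.92 TPM. Sod3, the extracellular dismutase, was at 0.01 TPM.

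Of 15 genes for making and recycling glutathione 13 were detected. Glrx3 led at 118 ± 14.1 TPM, followed by Slc3a2 at 54.9 ± 5.25 and Glrx2 at 46.9 ± 3.11 TPM. Both subunits of the rate-limiting glutamate-cysteine ligase were low, Gclc at 5.34 ± 1.05 and Gclm at 5.65 ± 1.23 TPM. Slc7a11, the cystine transporter, was at 0.17, 0.25 and 0.36 TPM, while Slc3a2, its partner chain that also serves other transporters, was abundant. In the glutathione transferase list Gstp1 (332 ± 6.98 TPM) stood at a level between Glrx and Gpx4, its relative Gstp3 had 137 ± 7.76 TPM, and Gstm2 was listed at 0.

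NRF2, the factor that is known to switch on Txn1, Txnrd1, Prdx1 and the glutathione genes under stress, is encoded by Nfe2l2, which had 29.6 ± 1.15 TPM. Its inhibitor Keap1 had 22.3 ± 1.88 TPM. Of the 20 genes in the list of NRF2 factors and targets the ferritin chains Fth1 (1398 ± 140 TPM) and Ftl1 (1003 ± 20.3 TPM) were at the level of Sod1 and Prdx1. Nqo1 (4.49 ± 0.285 TPM), Hmox1 (5.47 ± 0.997 TPM) and Srxn1, the sulfiredoxin that repairs over-oxidised peroxiredoxins (5.16 ± 1.11 TPM), were below Txnrd1. Targets of this factor thus spanned more than the range of the 10 redox genes.

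For the selenoprotein genes 20 of 22 were detected and 10 of 21 tested were called, beside 45.7% of all tested genes. Selenow (558 ± 24.7), Selenok (346 ± 7.24) and Selenof (267 ± 5.92 TPM) lay around the levels of Gpx1 and Gpx4, while Secisbp2 (30.9 ± 5.42 TPM) and Eefsec (16.3 ± 1.65 TPM), which bring selenocysteine to the ribosome, were near Txnrd1. In the list for NADPH supply, which feeds Txnrd1, 11 of 15 were detected and 7 of 11 tested were called, beside 45.7% of all tested genes. Of the 7, 6 were lowest in library 3, as were 2718 of the 6388 genes called among all tested. Mthfd2 had 107 ± 0.502 TPM, and Me2 57.5 ± 11.2 TPM. In the NADPH oxidase list, enzymes that make superoxide, Rac2 (3408 ± 99.7) and Cyba (642 ± 46.8 TPM) were high, Cybb, the catalytic chain, had 45.1, 49.2 and 33 TPM, and Duox1 was listed at 0.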

How the data were processed

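Each of the 3 libraries came with 2 gene tables and 1 transcript table. The estimated counts (expected counts, in which a model shares out reads that match several places) and the TPM values were made by the authors on mm10 and GENCODE M21, per the file headers and labels. The deposited percent of a gene's TPM per transcript and the posterior SD of each count, a signal of its uncertainty, come from the same tables. The other gene table holds whole-number counts deposited on GENCODE M4. The sources used here name no aligner, tool version, read length or strand.

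Estimated counts were rounded. With 1 group, edgeR's quasi-likelihood test has no contrast, so a Poisson chi-square test of homogeneity (2 degrees of freedom) was used with TMM sizes from edgeR 4.0.16 in R 4.3.3, over the 13970 genes averaging at least 10 counts (threshold 0.05 after Benjamini-Hochberg adjustment). It treats reads as independent, covers the spread between these technical libraries only, and was tested on simulated data. Pairs of genes were compared as log2(TPM + 0.1), which understates differences of low genes, and tested by exact sign-flip permutation, two-sided. Catalytic codons were located by script in the annotated coding sequences (scipy 1.17.1, pandas 2.3.3). Size factors of DESeq2 1.42.0, other filters, noise terms and leaving out each library were tried as alternatives.

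The members, lists and pairs were chosen with earlier results of these data known. The text names the 10 genes, both genes of each pair, and up to 4 of the highest and 3 of the lowest in each related list. It also names up to 3 of the highest in the marker and proliferation lists, and transcripts at 5% or more. Genes that overlap the 10 or share sequence with them are named as well. Foxp3, Ikzf2, Gclc, Gclm, Nfe2l2, Keap1, Nqo1, Hmox1, Srxn1, Secisbp2, Eefsec, Cybb and Prdx6-202 fall outside that rule and were chosen after their values were seen. Protein sequences were not used here.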

Additional observations from a re-analysis of the deposited data

How the results depend on the processing

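The number of redox genes called as different between libraries was 8, and lay between 2 and 8 when each library was left out in turn. It was 0 with the common dispersion added to the noise and 4 in the whole-number counts, and the cause of the latter was not tested. Over all tested genes 45.7% were called, and 21.3% to 33.8% with a library left out. That share was 3.29% with the common dispersion added and 21.5% in the whole-number counts. For the genes of the related lists the number called was 49, with 0 after the common dispersion was added, 18 in the whole-number counts and 27 to 33 with a library left out, where fewer samples were tested. No paired analysis was possible because there is only 1 group.

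Of the recomputed pair differences 7 reversed their sign. In the whole-number counts, with no length adjustment, Prdx1 minus Prdx2 was -0.00, Prdx1 minus Prdx6 -0.24, Txn1 minus Glrx 0.12, Prdx1 minus Gpx1 -0.77 and Txn1 minus Txnip -0.63 on the log2 scale. In estimated CPM with no length adjustment Prdx5 minus Prdx3 was -0.10 and Txn1 minus Txnip -0.53. The levels of all 10 redox genes moved when posterior mean TPM replaced TPM. All 10 stayed detected under each setting tried. The share of TPM on transcripts with the catalytic codon moved in 10 of 50 recomputations, chiefly when counted in reads, a setting chosen after seeing the data (Prdx2 64%, Gpx1 54%, Prdx6 14.8%). Depth limits Txnrd1 most, at 665 to 975 estimated counts.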
